A study of Mus musculus with 6 samples.

Results

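Lysosomal hydrolases are the acid enzymes that take apart proteins, glycans, lipids and nucleic acids inside the lysosome. A set of 41 genes for them was described in mouse peritoneal macrophages with and without overexpression of Rfx1, whose product, RFX1, binds DNA as one of the regulatory factor X proteins. The genes were taken by symbol from the 54532 gene identifiers of the count table and comprised 14 proteases, 11 glycan hydrolases, 9 lipid hydrolases, 2 activator proteins, 3 other hydrolases and 2 membrane proteins. All 41 passed the filter on low counts, among 13454 genes that did so in all. RNA was sequenced from 3 control libraries, whose genotype the labels give as a negative control, and 3 Rfx1 overexpression libraries. All 6 came from cells labelled PMAs, with the cell type macrophage, grown in DMEM with fetal bovine serum and antibiotics. The labels name no vector or promoter for the overexpression, no strain or age, and no animals or cultures of origin; the spread behind each p-value is therefore that between these libraries and may be technical.

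Most of these enzymes are made as inactive precursors in the endoplasmic reticulum, tagged with mannose 6-phosphate and carried to the lysosome by the mannose 6-phosphate receptors, where proton pumping by the V-ATPase gives the pH at which they work. Their genes are known targets of the MiT/TFE transcription factors (Tfeb, Tfe3, Mitf), which bind an E-box with the core CACGTG in many lysosomal promoters. In macrophages the lysosome digests engulfed cells and microbes, and the cathepsins also process antigens.

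Promoter sequences of the members are shown first, because the E-box is the element best known to be shared by lysosomal genes. RefSeq promoters of build GRCm38.p6, from 250 bases before to 50 bases after the start site, were matched for 37 of the 41 members; Asah1, Ctsb, Ctse and Ctsh had no entry. The letters CACGTG read the same on both strands. They occurred in a promoter of 11 of the 37 members (29.7%) and of 2187 of the 27025 genes of the promoter table (8.09%). The longer palindrome TCACGTGA, which contains CACGTG, occurred in 3 of 37 (8.11%) and in 304 of 27025 (1.12%). The X-box consensus, the kind of site that RFX factors bind, was searched as GTTNCC and GGNAAC with 2 bases of any kind between them, also a palindrome, and occurred in 0 of 37 and in 143 of 27025 (0.529%). Among proteases the E-box was present in 5 of 11 promoters (45.5%) and among the other classes in 6 of 26 (23.1%). Windows of 30 bases are printed 5′ to 3′ on the gene's strand for the 3 members with TCACGTGA and for 6 others from every class that had a match, with CACGTG in capitals.
Ctsa, chr2:164833749-164833778, plus strand: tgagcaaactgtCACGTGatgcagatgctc
Ctsa, chr2:164833766-164833795, plus strand: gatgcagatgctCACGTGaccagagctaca
Ctsd, chr7:142387908-142387937, minus strand: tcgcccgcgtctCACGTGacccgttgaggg
Gla, chrX:134601215-134601244, minus strand: taagcgattgatCACGTGagcatctacgtc
Gla, chrX:134601182-134601211, minus strand: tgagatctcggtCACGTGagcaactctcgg
Lgmn, chr12:102439124-102439153, minus strand: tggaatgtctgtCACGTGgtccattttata
Ctsl, chr13:64370739-64370768, minus strand: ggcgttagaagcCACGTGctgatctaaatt
Glb1, chr9:114401018-114401047, plus strand: ctgcttctgagtCACGTGgcctacagaggc
Naglu, chr11:101070009-101070038, plus strand: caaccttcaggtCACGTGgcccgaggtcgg
Arsa, chr15:89477423-89477452, minus strand: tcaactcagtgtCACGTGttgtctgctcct
Lamp1, chr8:13159088-13159117, plus strand: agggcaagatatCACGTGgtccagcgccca
Lamp1 held 4 copies of the E-box within the 61 bases before its start site, and Ctsa held 1 copy on either side of its start. None of the 7 members that passed the test below had CACGTG in this window (0 of 7), against 11 of the 30 matched members that did not pass (36.7%). Over the whole promoter table the share was 8.09%, and 7 promoters are few. A link between the E-box and a change in level was not tested. The other matches were in Gaa and Ctsf, and Ctsd held a second copy that began 245 bases before its start site. The promoters of Lipa and Ctsc, the passing members with the largest fall and the largest rise, are printed whole as examples of windows without CACGTG.
Lipa, chr19:34527425-34527724, minus strand: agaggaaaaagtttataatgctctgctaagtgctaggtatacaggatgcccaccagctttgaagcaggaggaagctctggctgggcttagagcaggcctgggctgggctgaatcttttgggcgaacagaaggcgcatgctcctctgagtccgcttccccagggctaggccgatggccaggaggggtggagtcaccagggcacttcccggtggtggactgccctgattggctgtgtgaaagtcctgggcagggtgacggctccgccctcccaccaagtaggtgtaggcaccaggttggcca
Ctsc, chr7:88277835-88278134, plus strand: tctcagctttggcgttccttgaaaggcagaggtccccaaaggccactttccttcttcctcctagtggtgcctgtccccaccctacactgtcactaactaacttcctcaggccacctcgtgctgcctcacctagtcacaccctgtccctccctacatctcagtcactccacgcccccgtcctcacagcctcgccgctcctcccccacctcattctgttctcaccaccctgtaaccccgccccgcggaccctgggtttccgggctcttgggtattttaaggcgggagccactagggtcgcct

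Some libraries stood apart from the others of their label. Library totals were 16461277 to 18795575 counts. Rfx1 itself was measured at 57.6, 10.97 and 14.8 CPM (counts scaled to a common library size) in control libraries 1, 2 and 3 and at 40.8, 36.4 and 23.2 CPM in overexpression libraries 1, 2 and 3. The library labelled control 1 therefore held the most Rfx1, and the groups did not differ by the test (adjusted p = 0.80; without control 1 the log2 difference was 1.37, adjusted p = 0.024). Lyz2, the macrophage lysozyme and itself a lysosomal hydrolase outside the set, was at 15672, 38702 and 28352 CPM in the controls, at 44.7 and 40.8 CPM in overexpression 1 and 2, and at 29281 CPM in overexpression 3. The library labelled overexpression 3 thus had a control-like Lyz2 level, and counts of members are given below with and without it. The labels give no Lyz2 genotype, and the cause of this split was not tested. All 8 macrophage markers were present in every library, with sums of 17758 to 40138 CPM in controls and 5857 to 32894 CPM in overexpression libraries. Lyz2 made up most of the sum in the controls and in overexpression 3. In overexpression 1 and 2 most of it came from Cd14, at 4518 and 3810 CPM. The 9 mesothelial markers summed to 28.2 to 175 CPM in controls and 2.19 to 8.32 CPM in overexpression libraries, and the 8 fibroblast markers to 658 to 1716 and 282 to 803 CPM. Sums for neutrophil (0.803 to 4.79 CPM over all libraries, Ly6g at 0), B cell (13.6 to 39.6), T cell (2.36 to 17.9), dendritic cell (1.51 to 3.66) and mast cell markers (8.74 to 20.6) were low in both groups. The 5 osteoclast markers summed to 528 to 859 CPM in controls and 301 to 586 CPM in overexpression libraries, nearly all from Atp6v0d2, with Calcr at 0. What part these other cells have in the differences below was not tested, and in bulk RNA fewer cells of a type and less RNA per cell cannot be told apart.

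The 41 members took 10.6, 9.78 and 8.73% of all counts in the 3 controls and 8.96, 9.11 and 8.44% in the 3 overexpression libraries, or 9.69% ± 0.916 and 8.83% ± 0.353 (SD, n = 3 each). These shares overlapped between groups. Most of the counts came from Ctsb, Psap, Ctss and Ctsd, which made up 72.7 to 74.9% of the members' counts in every library. Proteases as a class took 6.57% ± 0.512 of counts in controls and 6.11% ± 0.422 in overexpression libraries, again with overlap. Glycan hydrolases took 0.303% ± 0.0626 and 0.237% ± 0.00225, and lipid hydrolases 0.412% ± 0.0388 and 0.335% ± 0.0159. In both of these smaller classes the raw share of every overexpression library lay below that of every control. Raw shares are not TMM-scaled, unlike the CPM and tests below. The TMM factors were 1.137, 1.006 and 1.074 in controls and 0.841, 0.940 and 1.031 in overexpression libraries. After TMM scaling, 7 glycan hydrolases had log2 changes above 0 and 4 below, and 4 lipid hydrolases above and 5 below. Divided by the TMM factors, the shares of both classes overlapped between the groups, so the separation holds for raw shares only.

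**Figure D1:**
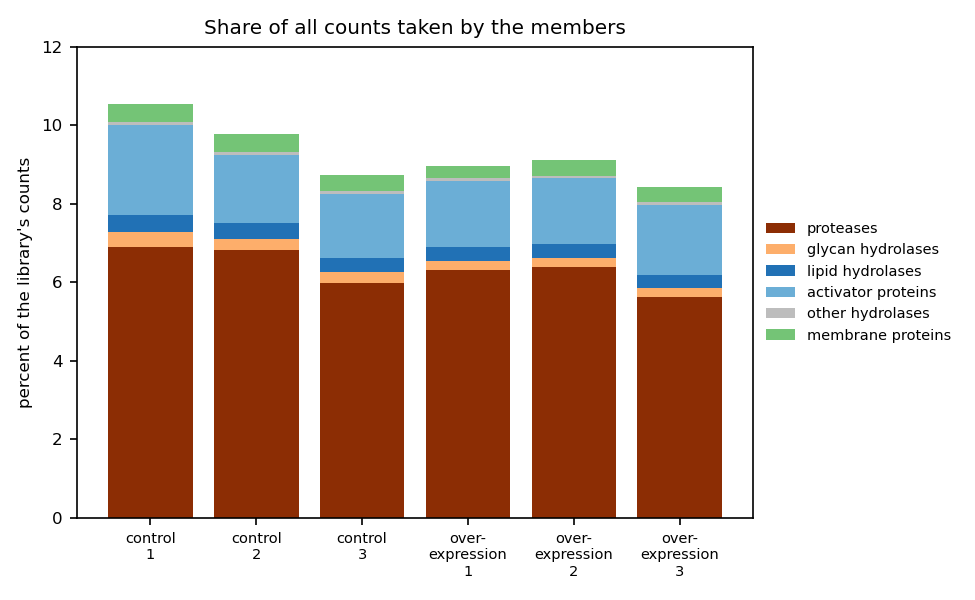
Stacked bars of the percent of each library's counts (vertical axis, from 0) taken by the 6 classes of members in the 6 libraries (horizontal axis). Proteases and activator proteins fill most of each bar, and the total runs from 8.44 to 10.6%.

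Levels set per kilobase of exon, so that genes can be compared, spanned from 13303 CPM per kb for Ctss to 0.428 CPM per kb for Ctse as means over all 6 libraries. Ctss, a cysteine cathepsin that cuts the invariant chain of MHC class II, was highest at 10523 ± 1131 CPM per kb in controls and 16083 ± 4653 in overexpression libraries. Psap, the precursor of the saposins that help lipid hydrolases reach their substrates, and Ctsd, the main aspartic cathepsin, followed at overall means of 6318 and 6039 CPM per kb. Psap and Ctsd did not differ beyond their spread in controls (6117 ± 937 and 6006 ± 547 CPM per kb). Ctsb, a cysteine cathepsin with endopeptidase activity, came next at 3199 CPM per kb, ahead of the carboxypeptidase Ctsz at 2132 and the membrane glycoprotein Lamp1 at 1136. The lowest members were Ctse, the cathepsin F gene Ctsf at 1.74 and the dermatan sulfatase gene Arsb at 2.22 CPM per kb.

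**Figure D2:**
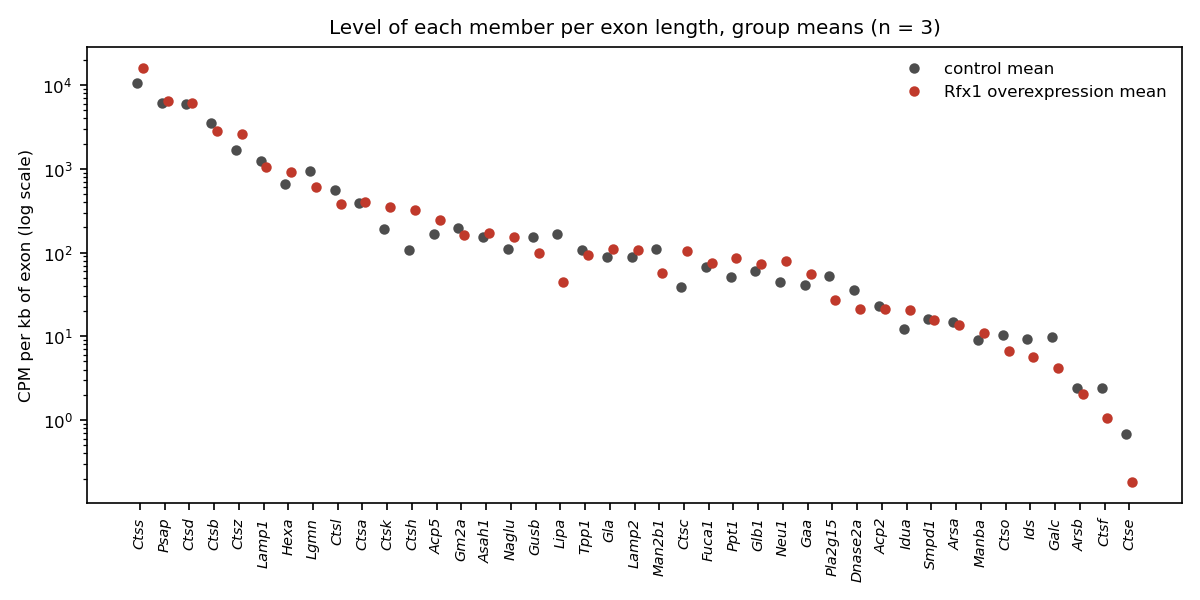
Group mean level of each member in CPM per kb of exon (vertical axis, log scale), ordered along the horizontal axis by the mean over all 6 libraries, with controls in grey and Rfx1 overexpression in red (n = 3 each). Levels fall from 13303 CPM per kb for Ctss to 0.428 for Ctse, and Lipa and Ctsc show wide gaps between the groups.

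Across the set, 2 members were higher in Rfx1 overexpression libraries and 5 were lower at an adjusted p under 0.05 over all genes tested. That was 4.88% and 12.2% of the members, against 6.90% and 5.97% of all genes tested. Lipa, Galc, Pla2g15, Man2b1 and Dnase2a fell, and Ctsc and Neu1 rose. The log2 changes of all members had a median of 0.02 and ran from -1.91 to 1.58, beside a median of -0.01 over all genes, with 21 above 0 and 20 below. In 8 members every overexpression library was above every control and in 9 every one was below (19.5% and 22.0%); among all genes tested these shares were 16.3% and 17.1%. The share of members that rose was thus near the background, and the share that fell was about 2 times it by count, 5 genes. Without overexpression 3, 6 members were higher and 6 lower, where 11.8% and 12.8% of all genes were called. Ctsh, Ctsk, Idua and Ppt1 then joined Ctsc and Neu1, Ctsf and Ctso joined the lower members, and Dnase2a no longer passed. Without both control 1 and overexpression 3, chosen after the data had been seen, 7 were higher and 8 lower, where 14.0% and 14.8% of all genes were called, and all 7 members called with 6 libraries were among them. Without overexpression 2, 0 were higher and 1 was lower, where 3.32% and 1.80% of all genes were called. Among overexpression libraries, overexpression 3 lay nearest the controls in 6 of the 7 called members, against 1157 of the 1731 genes called in all (66.8%). Over all 41 members it did so in 23 (56.1%), against 6912 of 13454 genes tested (51.4%).

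**Figure D3:**
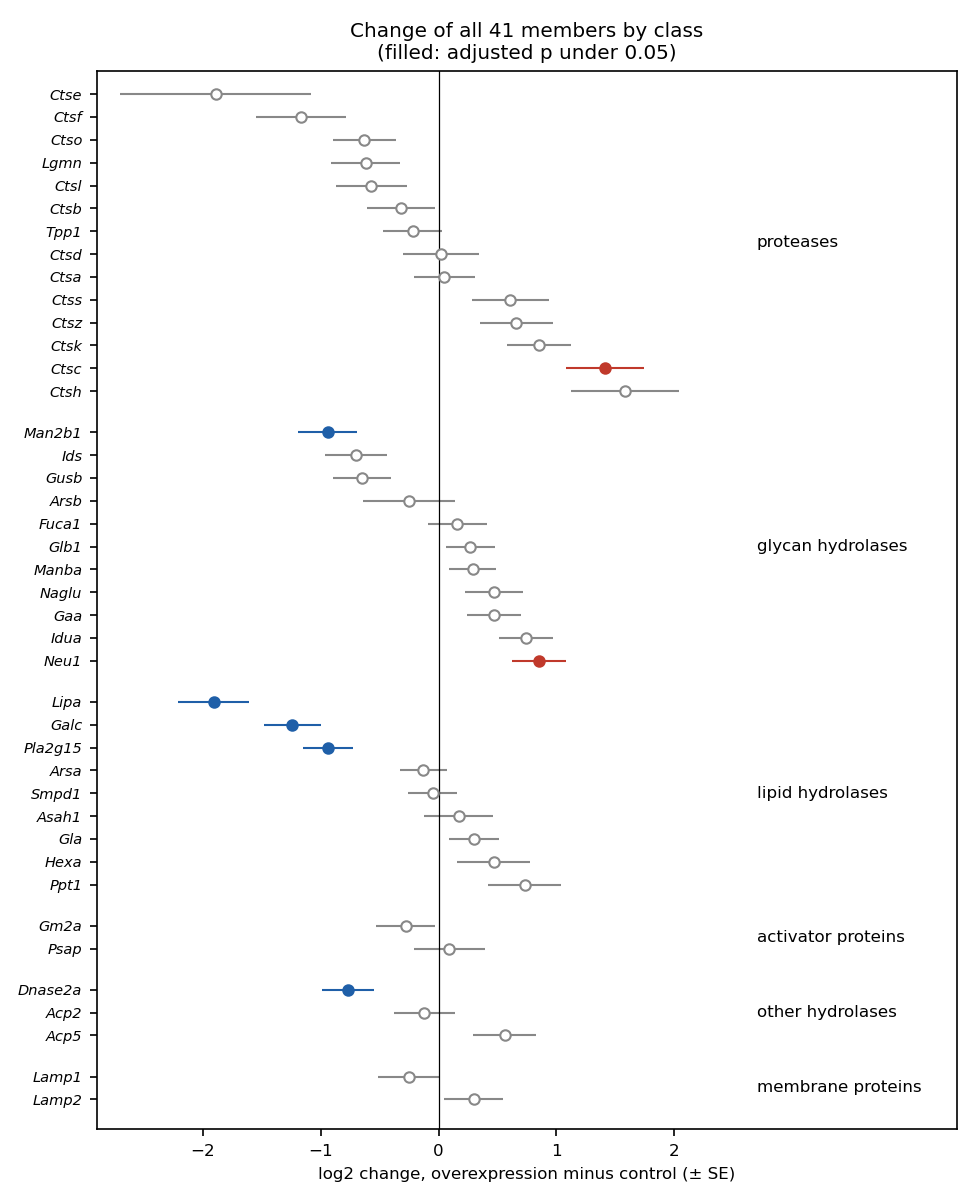
Log2 change of each of the 41 members, overexpression minus control (horizontal axis, bars ± SE), grouped by class and ordered within it. Filled blue points fell and filled red points rose at an adjusted p under 0.05, and open points did not pass; 3 of the 5 falls are lipid hydrolases, led by Lipa at -1.91.

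Lipid hydrolases held the largest fall. Of 9 members, 3 fell, 0 rose and 6 did not pass, with a median log2 change of -0.05. The falls were 33.3% of the class, against 5.97% of all genes tested. Lipa encodes lysosomal acid lipase, which frees cholesterol and fatty acids from the cholesteryl esters and triglycerides of engulfed lipoproteins (chr19:34492318-34527474, minus strand, GENCODE 21 on mm10). It was measured at 1095, 1175 and 1138 CPM in controls and at 217, 269 and 424 CPM in overexpression libraries. The groups were far apart, with overexpression 3 the highest of its group. Lipa fell 3.75-fold, a log2 change of -1.91 ± 0.30 with an adjusted p of 0.0037. It passed in all 15 alternative fits, with adjusted p from 5.9e-10 to 0.036 and log2 changes from -2.25 to -1.70.

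Galc encodes galactosylceramidase, which removes galactose from galactosylceramide and psychosine (chr12:98202294-98259459, minus strand). Its levels were 155, 143 and 144 CPM in controls and 51.0, 52.6 and 83.3 CPM in overexpression libraries, with no overlap. The log2 change was -1.24 ± 0.24, a fall with an adjusted p of 0.0095 (0.066 without overexpression 2). Pla2g15 encodes the lysosomal phospholipase A2 (chr8:106150399-106164715, plus strand). It was at 180, 156 and 134 CPM in controls and 76.8, 77.8 and 91.4 CPM in overexpression libraries, again with no overlap. The fall had a log2 change of -0.94 ± 0.21 and an adjusted p of 0.016, and did not pass without control 1 (0.052), control 2 (0.065) or overexpression 2 (0.095).

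The sphingolipid enzymes beside them did not pass. Asah1, the acid ceramidase, had a log2 difference of 0.17 ± 0.29 (adjusted p = 0.75) and Smpd1, the acid sphingomyelinase, of -0.05 ± 0.21 (0.91). Arsa, the sulfatidase, was at -0.13 ± 0.20 (0.71). Gla, the alpha-galactosidase that acts on globotriaosylceramide, was at 0.30 ± 0.21 (0.40), with every overexpression library above the controls. Hexa, the alpha subunit of beta-hexosaminidase, was at 0.47 ± 0.31 (0.36). Ppt1, which removes fatty acids from palmitoylated proteins, was at 0.73 ± 0.31 (0.16). Ppt1 passed without overexpression 3, at a log2 change of 1.01 and an adjusted p of 0.011; its exons overlap those of Cap1 on the other strand, which held 4178 to 10786 counts a library.

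**Figure D4:**
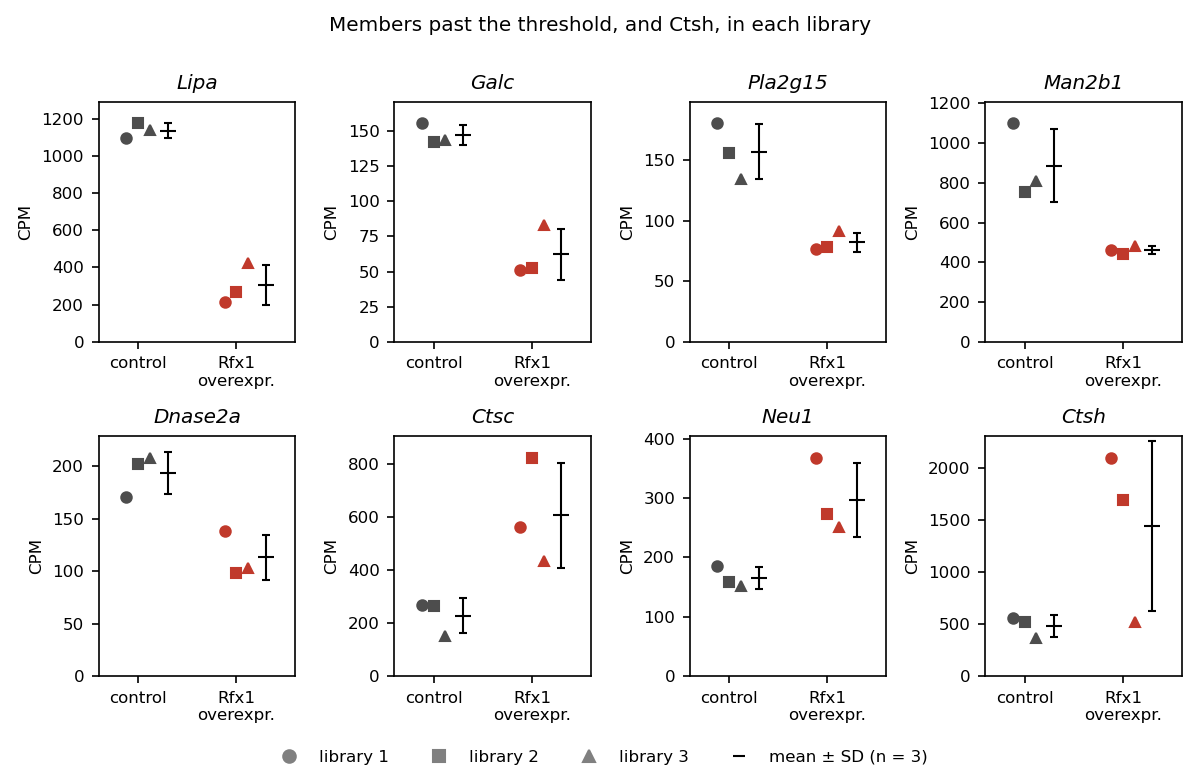
CPM (vertical axis, from 0) of the 7 members that passed the test and of Ctsh in each library, with controls in grey, Rfx1 overexpression in red, a symbol per library number and the mean ± SD (n = 3). Lipa lies at 1095 to 1175 CPM in controls and 217 to 424 in overexpression libraries, while overexpression 3 of Ctsh, at 525 CPM, lies among the controls.

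Proteases were split in direction. Of 14 members, 1 rose (7.14%), 0 fell and 13 did not pass, where 6.90% of all genes tested rose and 5.97% fell. Of the log2 changes 7 were above 0 and 7 below, with a median of -0.10. Ctsc encodes cathepsin C, the dipeptidyl peptidase that activates the serine proteases of immune cell granules (chr7:88278085-88310888, plus strand). Its levels were 269, 262 and 150 CPM in controls and 560, 823 and 433 CPM in overexpression libraries, with no overlap. Ctsc rose 2.66-fold, a log2 change of 1.41 ± 0.33 with an adjusted p of 0.020, and did not pass without control 2 (0.068), control 3 (0.081) or overexpression 2 (0.098).

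Ctsh encodes cathepsin H, an aminopeptidase (chr9:90054152-90076089, plus strand), and was the member with the largest positive log2 difference. It was at 561, 522 and 366 CPM in controls and at 2104, 1700 and 525 CPM in overexpression libraries. Overexpression 1 and 2 lay far above the controls and overexpression 3 within them. The log2 difference was 1.58 ± 0.46 with an adjusted p of 0.05009, just outside the threshold. Ctsh passed without overexpression 3 (log2 change 1.98, adjusted p = 7.3e-04), by DESeq2 (0.0021) and by limma-voom (0.0012).

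Another pair of proteases with a log2 difference beyond 1 did not pass. Ctse, an endosomal aspartic protease, was at 3.87, 2.24 and 0.33 CPM in controls and 0.27, 0.85 and 0.59 CPM in overexpression libraries (log2 difference -1.89 ± 0.81, adjusted p = 0.16). The controls spread over a wider range than the difference between the group means. Ctsf was at 7.04, 16.03 and 13.5 CPM in controls and 3.69, 4.87 and 7.61 CPM in overexpression libraries (-1.17 ± 0.38, adjusted p = 0.076). Control 1 overlapped the overexpression libraries, and Ctsf passed without it (adjusted p = 0.030), without overexpression 3 (0.015) and by DESeq2 (0.030).

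The abundant proteases differed in sign, and none passed by edgeR with all 6 libraries. Ctss was at 14549, 15680 and 12642 CPM in controls and 23117, 27423 and 14981 CPM in overexpression libraries, so that overexpression 3 again lay within the controls (log2 difference 0.61 ± 0.33, adjusted p = 0.26; by limma-voom 0.90, adjusted p = 0.012). Ctsb was at 21817, 23225 and 19357 CPM in controls and 18514, 17134 and 16106 CPM in overexpression libraries. Every overexpression library was below every control, with a log2 difference of -0.32 ± 0.29 (adjusted p = 0.52). Ctsd was at 13609, 15582 and 13168 CPM in controls and 18498, 10831 and 13493 CPM in overexpression libraries, which spread to both sides of the controls (0.02 ± 0.32, adjusted p = 0.98). Ctsz was at 2335, 2530 and 2280 CPM in controls and 5319, 3279 and 2692 CPM in overexpression libraries, with no overlap (0.66 ± 0.31, adjusted p = 0.20). Ctsb, Ctsz and Ctsa share exon bases with genes on the other strand, and whether reads were counted by strand is not given in the sources used here. Ctsd and Ctsl share exon bases with Gm49369 and Gm49230 on their own strand, both at 0 counts in every library. The called members Galc and Dnase2a overlap Gm47439 (0 to 4 counts a library) and Mast1 (1 to 5) on the other strand.

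Of the remaining proteases, Ctsk, a collagen-degrading cathepsin best known from osteoclasts, was at 211, 350 and 311 CPM in controls and 616, 513 and 436 CPM in overexpression libraries. The groups did not overlap (0.85 ± 0.27, adjusted p = 0.067), and Ctsk passed without overexpression 3 (0.027) and by DESeq2 (0.014). Lgmn, the asparaginyl endopeptidase legumain that matures other cathepsins, was lower in every overexpression library (-0.62 ± 0.29, adjusted p = 0.19). Ctsl, a broad cysteine endopeptidase, was at -0.57 ± 0.30 (0.25), and Ctso at -0.63 ± 0.27 (0.16), both with overlap; Ctso passed without overexpression 3 (0.041). Tpp1, the tripeptidyl peptidase, was at -0.22 ± 0.25 (0.62) and Ctsa, a carboxypeptidase that also shields Neu1 and beta-galactosidase, at 0.05 ± 0.26 (0.92).

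Of 11 glycan hydrolases, 1 rose, 1 fell and 9 did not pass, with a median log2 change of 0.27. Each call was 9.09% of the class, where 6.90% of all genes tested rose and 5.97% fell. Neu1 encodes the lysosomal sialidase (chr17:34931253-34935953, plus strand). It was at 186, 158 and 152 CPM in controls and 368, 273 and 251 CPM in overexpression libraries, with no overlap. Neu1 rose with a log2 change of 0.85 ± 0.23 and an adjusted p of 0.039. It did not pass with scaling by upper quartile (0.051) or library size alone (0.088), or without control 1 (0.056), control 2 (0.14), control 3 (0.16), overexpression 1 (0.080) or overexpression 2 (0.10).

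Man2b1 encodes the lysosomal alpha-mannosidase (chr8:85083270-85098282, plus strand). It was at 1099, 753 and 809 CPM in controls and 463, 442 and 481 CPM in overexpression libraries, whose values lay close together below all controls. Man2b1 fell with a log2 change of -0.94 ± 0.25 and an adjusted p of 0.033. It did not pass without control 1 (0.089), control 2 (0.073), control 3 (0.084), overexpression 1 (0.077) or overexpression 2 (0.16).

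Idua and Ids act on the same iduronate residues of dermatan and heparan sulfate, Ids removing the sulfate and Idua the sugar. Idua was at 62.0, 43.8 and 47.8 CPM in controls and 89.97, 98.2 and 68.7 CPM in overexpression libraries (0.74 ± 0.23, adjusted p = 0.063; 0.017 without overexpression 3). Ids was at 55.2, 44.1 and 43.6 CPM in controls and 18.9, 35.1 and 33.7 CPM in overexpression libraries (-0.70 ± 0.26, adjusted p = 0.11). The groups overlapped in neither gene, with Idua higher and Ids lower in overexpression libraries. Gusb, beta-glucuronidase, was also lower in every overexpression library (-0.65 ± 0.25, adjusted p = 0.12; 0.048 by DESeq2), and Gaa, the acid alpha-glucosidase of glycogen, higher in every one (0.47 ± 0.23, 0.22). Naglu, an N-acetylglucosaminidase of heparan sulfate, was at 0.47 ± 0.25 (0.25), Manba, beta-mannosidase, at 0.29 ± 0.20 (0.39) and Glb1, beta-galactosidase, at 0.27 ± 0.21 (0.43). Fuca1, alpha-fucosidase, was at 0.16 ± 0.25 (0.72) and Arsb at -0.25 ± 0.39 (0.72), all with overlap. Reads of Idua can be shared with Dgkq and Slc26a1 on the other strand, and those of Glb1 with Tmppe on its own.

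Of the 3 other hydrolases, 1 fell (33.3%, against 5.97% of all genes tested). Dnase2a encodes DNase II, which digests the DNA of engulfed cells (chr8:84908560-84922915, plus strand). It was at 170, 202 and 208 CPM in controls and 138, 98.1 and 103 CPM in overexpression libraries, with no overlap. Dnase2a fell with a log2 change of -0.77 ± 0.22 and an adjusted p of 0.045. It did not pass with RLE scaling (0.051) or without control 1 (0.056), control 2 (0.14), control 3 (0.16), overexpression 2 (0.20) or overexpression 3 (0.052). Acp5, tartrate-resistant acid phosphatase, was higher in every overexpression library (0.56 ± 0.27, adjusted p = 0.21), and Acp2, the lysosomal acid phosphatase, was at -0.12 ± 0.26 (0.80).

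Neither activator protein nor either membrane protein passed. Psap was at 19577, 16268 and 14512 CPM in controls and 19630, 17262 and 16769 CPM in overexpression libraries, which overlapped (log2 difference 0.09 ± 0.30, adjusted p = 0.87). Gm2a, the activator that presents GM2 ganglioside to hexosaminidase, was at -0.28 ± 0.25 (0.51). Lamp1 was at 3401, 3551 and 2945 CPM in controls and 2470, 2959 and 2900 CPM in overexpression libraries (-0.25 ± 0.26, adjusted p = 0.57). Lamp2, the other main glycoprotein of the lysosomal membrane, was at 0.30 ± 0.25 (0.47).

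Set side by side, proteases had 1 member higher and 0 lower of 14, and the other 27 members 1 higher and 5 lower. These were 7.14% and 0% of proteases and 3.70% and 18.5% of the others, against 6.90% and 5.97% of all genes tested. The median log2 changes were -0.10 for proteases and 0.09 for the others. Groups did not overlap in 3 proteases that were higher and 2 that were lower (21.4% and 14.3%). In the other members these counts were 5 and 7 (18.5% and 25.9%), and among all genes tested the shares were 16.3% and 17.1%. The difference between the classes was not tested. Without overexpression 3, proteases counted 3 higher and 2 lower, glycan hydrolases 2 and 1, and lipid hydrolases 1 and 3. In that fit 11.8% of all genes were called higher and 12.8% lower.

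Ratios within a library do not depend on how libraries are scaled. They are given for pairs that act together or are close in substrate, chosen after their values had been seen, as counts per kb of the first over the second. With 3 libraries against 3 the smallest 2-sided exact permutation p is 0.1, so no ratio could pass 0.05, and over the 7 ratios computed the adjusted value of those at 0.1 was 0.12. Ctss over Ctsb was 2.97, 3.01 and 2.91 in controls and 5.56, 7.13 and 4.14 in overexpression libraries. The controls were nearly equal, and every overexpression library, overexpression 3 included, lay above them. Neu1 over its partner Ctsa was 0.129, 0.0999 and 0.114 in controls and 0.209, 0.182 and 0.200 in overexpression libraries. Lipa over Asah1 was 1.14, 0.887 and 1.42 in controls and 0.266, 0.204 and 0.318 in overexpression libraries. In both pairs the groups were separate. Galc over Gla was 0.128, 0.0983 and 0.111 in controls and 0.0292, 0.0321 and 0.0563 in overexpression libraries. Ctsc over Ctsd was 0.00801, 0.00682 and 0.00462 in controls and 0.0123, 0.0308 and 0.0130 in overexpression libraries, again without overlap. For these 5 ratios the exact permutation p was 0.1.

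**Figure D5:**
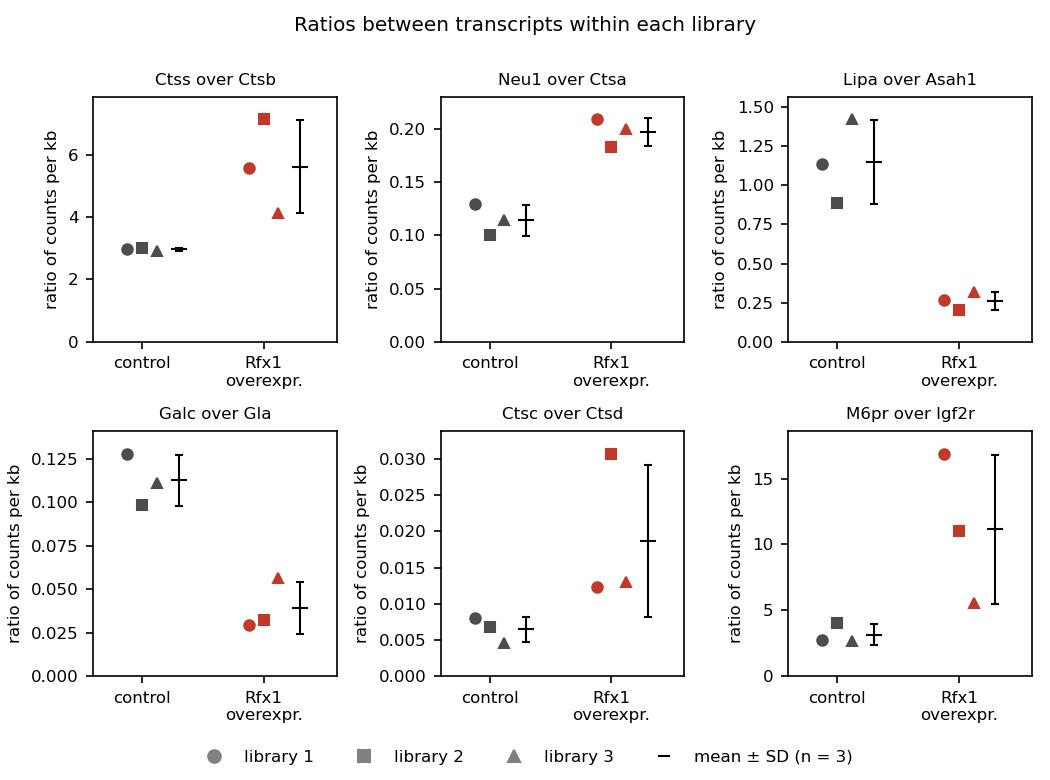
Ratio of counts per kb of exon between paired genes (vertical axis, from 0) in each library, for 6 pairs, with controls in grey, Rfx1 overexpression in red and the mean ± SD (n = 3). Ctss over Ctsb is 2.91 to 3.01 in controls and 4.14 to 7.13 in overexpression libraries, and the groups are separate in each of the 6 pairs shown.

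The receptors that deliver these enzymes differed in sign. M6pr, the cation-dependent mannose 6-phosphate receptor, was at 358, 369 and 321 CPM in controls and 624, 702 and 574 CPM in overexpression libraries, with no overlap. It rose with a log2 change of 0.86 ± 0.22 and an adjusted p of 0.032, and did not pass with scaling by library size alone (0.069), with the replicate number as a block (0.056) or without control 1 (0.068), control 2 (0.10), control 3 (0.16), overexpression 1 (0.054) or overexpression 2 (0.14). Igf2r, the cation-independent receptor, was at 294, 204 and 271 CPM in controls and 82.4, 143 and 231 CPM in overexpression libraries, where overexpression 3 lay among the controls (-0.75 ± 0.35, adjusted p = 0.19; 0.013 without overexpression 3). The ratio of M6pr to Igf2r per kb was 2.72, 4.04 and 2.64 in controls and 16.9, 10.99 and 5.55 in overexpression libraries (exact permutation p = 0.1, the smallest possible). Nagpa, the uncovering enzyme that completes the mannose 6-phosphate tag, fell from 78.3 ± 1.43 to 42.8 ± 8.09 CPM (SD, n = 3 each), a log2 change of -0.87 ± 0.21 with an adjusted p of 0.023. Its call was lost without control 1 (0.053), control 2 (0.079), control 3 (0.089), overexpression 1 (0.052) or overexpression 2 (0.13). Of the 17 sorting genes these were the 2 that passed, and the median log2 change was -0.03. That was 5.88% in each direction, near the 6.90% and 5.97% of all genes tested.

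Of 30 other lysosomal enzymes, 3 rose and 3 fell, with a median log2 change of 0.22. That was 10% in each direction, against 6.90% and 5.97% of all genes tested. Aga, which splits the link between glycans and asparagine, rose from 27.96 ± 1.79 to 61.5 ± 15.4 CPM (log2 change 1.14, adjusted p = 0.013), and did not pass without control 2 (0.056), control 3 (0.055) or overexpression 2 (0.073). Ctbs, the chitobiase of the same pathway, rose from 19.7 ± 1.61 to 40.02 ± 9.56 CPM (1.03, adjusted p = 0.018), and did not pass with scaling by library size alone (0.05038) or without control 1 (0.054), control 2 (0.063), control 3 (0.085) or overexpression 2 (0.098). Pld4, an exonuclease of endolysosomes, fell from 377 ± 130 to 145 ± 53.5 CPM (-1.38, adjusted p = 0.028), and did not pass without control 1 (0.070), control 2 (0.088) or overexpression 2 (0.12). Dpp7, a dipeptidyl peptidase, fell from 168 ± 5.12 to 104 ± 10.1 CPM (-0.69, adjusted p = 0.041), and did not pass without the filter on low counts (0.065), with the block (0.065) or without control 1 (0.10), control 2 (0.11), control 3 (0.14), overexpression 2 (0.18) or both control 1 and overexpression 3 (0.084). The 2 others that passed, named after their values had been seen, were Naaa, an acid amidase of fatty acid ethanolamides (0.83, adjusted p = 0.027), and Hgsnat, the acetyltransferase of heparan sulfate breakdown (-0.80, adjusted p = 0.048). Without control 2, control 3 or overexpression 2, 0 of the 30 enzymes rose, where 3.26%, 3.79% and 3.32% of all genes did. Without control 1, control 2 or overexpression 2, 0 fell, where 5.61%, 2.01% and 1.80% of all genes did. Without overexpression 3, 5 rose, where 11.8% of all genes did.

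The V-ATPase acidifies the lysosome. Of its 20 subunit genes 0 rose and 1 fell (5%), where 6.90% and 5.97% of all genes tested did. The median log2 change was -0.22. In 6 of the 20 every overexpression library was below every control, a pattern that 17.1% of all genes tested had, and in 0 every one was above. The 1 that passed was Atp6v0a1, a membrane subunit of the pump, which fell from 136 ± 22.0 to 61.0 ± 14.7 CPM (-1.15, adjusted p = 0.013; 0.054 without control 3 and 0.083 without overexpression 2). By DESeq2, 5 subunits were lower and 1 was higher, where 8.97% of all genes were lower, and by limma-voom 7 and 1, where 19.8% were lower. The 28 tested genes of the lysosomal membrane and its transport had a median log2 change of 0.02. Of these, 0 rose and 1 fell (3.57%), where 6.90% and 5.97% of all genes tested did. The gene that fell was Tpcn2, an ion channel of the lysosome, at 112 ± 8.02 and 58.1 ± 10.4 CPM (-0.95, adjusted p = 0.017). Its adjusted p was 0.053 without control 2, 0.071 without control 3 and 0.10 without overexpression 2.

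Among 19 tested genes for the MiT/TFE factors and for mTORC1 at the lysosome, 0 rose and 1 fell, with a median log2 change of -0.25. The share that fell was 5.26%, near the 5.97% of all genes tested, of which 6.90% rose. Rragd, a GTPase that brings mTORC1 to the lysosome, fell from 58.7 ± 3.94 to 26.99 ± 10.3 CPM (-1.12, adjusted p = 0.024), and did not pass without control 2 (0.093), control 3 (0.080), overexpression 1 (0.066) or overexpression 2 (0.13). Tfeb was at 51.0, 38.5 and 43.1 CPM in controls and 34.0, 20.5 and 20.3 CPM in overexpression libraries. The groups did not overlap, and the log2 difference was -0.83 ± 0.26 with an adjusted p of 0.064 (0.018 without overexpression 1 and 0.035 by DESeq2). Tfe3 was at -0.31 (adjusted p = 0.39) and Mitf at 0.06 (0.88).

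Of 9 inhibitors of cysteine proteases, 3 were tested and 1 rose (33.3%, against 6.90% of all genes tested). Cst7, which encodes cystatin F, an inhibitor of cathepsin C and other cathepsins inside the endolysosome, was at 0.94, 0.11 and 0.05 CPM in controls and 37.9, 34.5 and 5.61 CPM in overexpression libraries. The controls were near 0, and overexpression 3 was the lowest of its group but above all of them. Cst7 rose with a log2 change of 6.05 and an adjusted p of 0.0066, and passed in all 15 alternative fits, with log2 changes of 5.57 to 8.69 and adjusted p of at most 0.034. Cst3, cystatin C, was at 1122, 1533 and 1662 CPM in controls and 3445, 2349 and 1214 CPM in overexpression libraries, which overlapped (0.70 ± 0.38, adjusted p = 0.26; 0.033 without overexpression 3). Cstb, which inhibits cathepsins in the cytosol, was at 0.20 ± 0.30 (0.71).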

How the data were processed

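The values are raw counts of reads per gene in 1 table, deposited by the authors for all 6 libraries. RNA was extracted with Trizol and made into libraries with a stranded mRNA kit, per the labels' protocols. Named in the submitters' processing notes, with no role given, are featureCounts (1.5.0-p3), DESeq2 (1.20.0) and build mm10. Which aligner, annotation release and strand setting were used is not given in the sources used here. Gene identifiers were matched to GENCODE mouse release 21 (54495 matched, 37 did not). Tests of these counts used edgeR 4.0.16, under R 4.3.3 (TMM scaling, default filter by group, robust quasi-likelihood test, group as the only term) with Benjamini-Hochberg adjustment over 13454 genes at 0.05. CPM uses TMM-scaled library sizes, CPM per kb divides by the summed exon length, and shares use raw totals. Scripts were tested on simulated data. Pairs of libraries correlated at 0.931 to 0.978 (log2 CPM) inside a group and at 0.837 to 0.932 across groups, and pairs inside a group all differed beyond sampling noise (lowest chi-square/df 37.1). Alternatives were RLE, upper-quartile and library-size scaling, DESeq2 1.42.0, limma-voom (limma 3.58.1) with quality weights, other filters, a replicate block, stricter thresholds, other denominators and classes, and libraries left out. Protein sequences were not used here, so identity between cathepsins was not computed. Values by library are given for members that passed, the 6 highest per kb and those with a log2 change of at least 1, and of each other list up to 2 risen and 2 fallen genes by smallest p, with M6pr, Igf2r, Tfeb, Tfe3, Mitf, Cst3 and Rfx1; some further results of this rule and 1 of the 7 ratios are not reported here; others were added after their values were seen. Members and lists were chosen with earlier results of these data known.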

Additional observations from a re-analysis of the deposited data

How the results depend on the processing

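Counts of members are given as higher and lower. The 2 and 5 of all members became 1 and 5 with upper-quartile scaling, 1 and 6 with library size alone (which moved the median of all genes to -0.20), 5 and 7 with DESeq2, 8 and 8 with limma-voom, 5 and 8 without the filter, 0 and 2 at an adjusted p under 0.01, 1 and 2 with a change of at least 1 log2 unit, and 7 and 8 without control 1 and overexpression 3; leaving out each library gave 0 to 6 and 1 to 6. The 1 and 0 proteases became 3 and 1 with DESeq2, 4 and 2 with limma-voom, 3 and 2 without the filter, 2 and 1 with the block and 3 and 3 without those 2 libraries (0 to 3 and 0 to 2 leaving out each). The 1 and 1 glycan hydrolases became 0 and 1 with upper-quartile scaling, 0 and 2 with library size alone, 2 and 2 with DESeq2, 3 and 2 with limma-voom, 2 and 2 without the filter, 1 and 0 with the block and 3 and 1 without those 2 libraries (0 to 2 and 0 to 1). The 0 and 3 lipid hydrolases became 1 and 3 with limma-voom and without those 2 libraries (0 to 1 and 1 to 3). Under library size alone the class medians were -0.29 for proteases, 0.06 for glycan and -0.25 for lipid hydrolases. Without the 100 most counted genes, members took 1.56% of control and 1.48% of overexpression counts. Over all genes, the 928 higher and 803 lower became 1363 and 1207 with DESeq2 (10.1% and 8.97%) and 2453 and 2667 with limma-voom (18.2% and 19.8%). They became 1457 and 1460 of 23737 without the filter (6.14% and 6.15%) and 454 and 280 without control 2. Upper-quartile scaling called 6.37% of all genes higher and 6.67% lower, and library size alone 4.82% and 6.76%. Leaving out each library called 3.26% to 11.8% higher and 1.80% to 12.8% lower. Shares of all genes at the 2 stricter thresholds are not given here. The causes of these moves were not tested. Members that passed by limma-voom and not by edgeR were Ctsf, Ctsh, Ctsk, Ctsl, Ctss, Gusb, Idua, Naglu and Ppt1. The replicate block, with replicate number as a term, gave 3 members higher and 4 lower and 957 and 945 genes in all, and kept 5 of the 7 calls (Man2b1 at an adjusted p of 0.057 and Dnase2a at 0.067 were lost). Same-numbered libraries correlated at 0.094, 0.005 and 0.327 in their deviations from group means, and control 1 correlated best with overexpression 2 (0.190), so the numbers were not taken as pairs. No member's called direction reversed in any alternative. Depth limits Ctse most, with 4 to 82 counts a library.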
